A study of Mus musculus with 3 samples.

Results

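*Pax6*, *Emx1*, *Emx2*, *Neurog1*, *Neurog2*, *Eomes* (*Tbr2*), *Neurod1*, *Tbr1*, *Neurod6* and *Slc17a6* (*Vglut2*) are genes of the pallial, glutamatergic lineage, and their RNA was followed across 3 sorted cell populations. These 10 genes were picked by name, with no measured value in the rule, out of the 20145 genes that the probes named through a RefSeq transcript, and 14 probes represented them. *Pax6*, *Eomes*, *Neurod1* and *Tbr1* had a pair of probes each and the other 6 genes had 1 probe each.

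RNA of each population was hybridised to 1 one-color Agilent mouse array. MGE-GFP+ cells were the GFP-positive cells sorted from the medial ganglionic eminence (MGE) of E12.5 embryos of Lhx6-GFP BAC transgenic mice on a CD1 background, listed as female. ES-Lhx6-GFP+ (from here on ES-GFP+) and ES-Lhx6-GFP- (ES-GFP-) cells were the GFP-positive and GFP-negative cells sorted at day 12 of an MGE differentiation protocol from J14, a male 129S4/SvJae mouse ES cell line that carries the same Lhx6-GFP transgene and, per the labels, a 692-mCherry enhancer reporter. The aggregates (1920 were pooled) had received 100 ng/ml of the Wnt antagonist Dkk-1 and, from day 3, 6 nM of the Hedgehog agonist SAG, and the ROCK inhibitor Y-27632 was present during their dissociation. The GFP reports activity of the *Lhx6* transgene and not of any gene described here, J14 is 1 line, and GFP-negative cells of the MGE were not part of the series. Tissue of origin, strain, sex and culture differed together between MGE-GFP+ and the ES-derived cells, so their parts cannot be told apart.

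The pallium is the dorsal telencephalon, which gives rise to the glutamatergic neurons of the cortex, while the MGE, a part of the subpallium, gives rise to GABAergic interneurons. In pallial progenitors the homeobox factors Pax6, Emx1 and Emx2 pattern the tissue, and the proneural factors Neurog1 and Neurog2 start neurogenesis. Eomes then marks intermediate progenitors, Neurod1 and Neurod6 follow in differentiating neurons, Tbr1 marks early-born deep-layer neurons, and Slc17a6 loads glutamate into synaptic vesicles. Several of these genes also act outside the pallium: Pax6 in retina and spinal cord, Neurog1 and Neurog2 in midbrain, spinal cord and sensory ganglia, and Slc17a6 in diencephalic and brainstem neurons.

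Intensities below are background-subtracted spot signals as the scanner software gave them. A level is log2 of the intensity minus the 75th percentile of its array, and a fold change is a difference of levels averaged over a gene's probes, so it is not the plain ratio of the printed intensities. With 1 array per population there was no test, no SD between replicates and no p-value. The only error that could be had is that of repeat spots of other probes on the same array, whose SD was 0.42 to 0.45 on the log2 scale below an intensity of 50, 0.15 to 0.23 from 50 to 100, 0.10 to 0.12 from 100 to 400 and 0.076 to 0.091 above, and every ± here is the SD that these values give for a difference. It covers printing and reading of the array and leaves out embryos, cultures, sorts and amplification. Where a probe was not well above background on 1 of the arrays compared, it was set to the lowest detected level of that array and the fold change is given as "at least". Such a bound holds for this floor and scaling and can be smaller under other processing. In these sorted pools, fewer cells that express a gene and less RNA of it per cell cannot be told apart.

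The ES-GFP+ array stood apart in its dim range. Of the 106 probes for E1A and ERCC spike-in controls, which match no mouse transcript, 86 were well above background there and 34 on each of the others, and their median intensity was 69.9 there, 11.5 on the ES-GFP- and 7.73 on the MGE-GFP+ array. The 95th percentile of these control probes was 377, 208 and 152 in the same order, and a member below that value is described as within the control range. *Lhx6* itself, the gene behind the sort, had a mean intensity of 22250 in ES-GFP+, 4061 in ES-GFP- and 29403 in MGE-GFP+ cells.

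Most of the pallial genes were lower in the Lhx6-GFP-positive populations than in ES-GFP- cells, 7 of 10 in ES-GFP+ (against 35.5% of all genes with a value) and 8 of 9 in MGE-GFP+ cells (against 52.6%), and *Tbr1* in MGE-GFP+ cells was the exception above the control range. In the counts that follow, a gene was counted if at least 1 of its probes qualified. On the ES-GFP- array 9 of the 10 genes were well above background and 7 were above the control range, namely *Pax6*, *Neurog1*, *Neurog2*, *Eomes*, *Neurod1*, *Tbr1* and *Slc17a6*. On the ES-GFP+ array all 10 were well above background but 1, *Slc17a6*, was above the control range. On the MGE-GFP+ array 8 were well above background and 1, *Tbr1*, was above the control range. By probe, 12, 12 and 9 of the 14 were well above background on the ES-GFP-, ES-GFP+ and MGE-GFP+ arrays. Of all 55681 mouse probes 80.3%, 90.6% and 77.1% were, so detection alone did not set these genes apart. Above the control range were 7, 1 and 2 of the 14 member probes, in the same order of arrays. The share of all genes above that range was not computed, and its upper end differed between the arrays. The counts above it can therefore not be read as particular to these genes.

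Between ES-GFP+ and ES-GFP- cells, 4 of 10 members were at least 2-fold lower (*Pax6*, *Neurog1*, *Neurog2* and *Neurod1*), against 6.40% of the 18655 genes with a value, and 3 were at least 2-fold higher (*Emx1*, *Emx2* and *Neurod6*), against 24.0%. The median log2 difference of the members was -0.76 and that of all genes was 0.27. Between MGE-GFP+ and ES-GFP- cells, 7 of the 9 members with a value were at least 2-fold lower, against 17.2% of 17025 genes, and 1, *Tbr1*, was at least 2-fold higher, against 9.90%, with medians of -2.02 for the members and -0.06 for all genes. Between MGE-GFP+ and ES-GFP+ cells, 8 of 10 were at least 2-fold lower, against 32.2% of 18580 genes, and 1, again *Tbr1*, was at least 2-fold higher, against 5.48%, with medians of -1.40 and -0.36. The last count of lower members depended on the scaling of the arrays and fell to 4 with the 50th percentile as the base and 2 after quantile normalization. Each population entered 2 of these 3 comparisons, so their counts share arrays. With 1 array on each side and members chosen by name, the counts describe these 3 RNA samples.

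**Figure D1:**
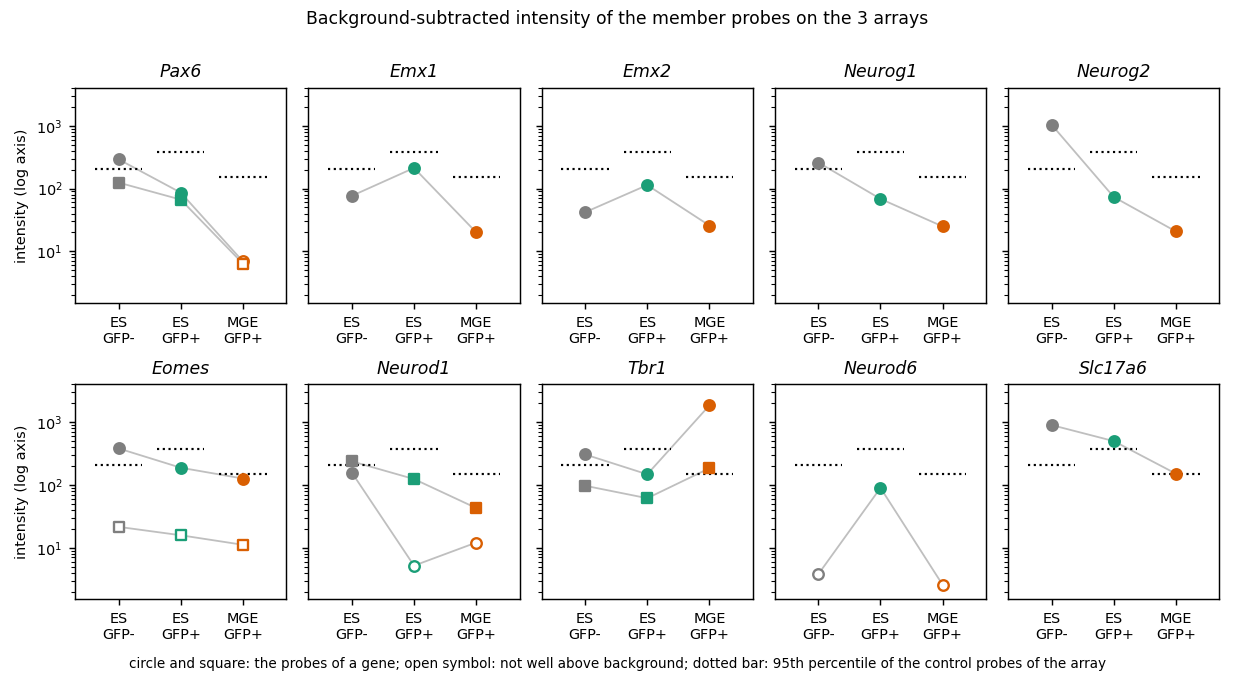
Background-subtracted intensity (log axis) of each probe of the 10 genes on the ES-GFP-, ES-GFP+ and MGE-GFP+ arrays, with circles and squares for the probes of a gene, open symbols where a probe was not well above background, and dotted bars at the 95th percentile of the control probes (208, 377 and 152). *Neurog2* falls from 1043 to 73.4 and 20.7, the brighter *Tbr1* probe is at 1855 on the MGE-GFP+ array, and *Emx1*, *Emx2* and *Neurod6* lie under the dotted bar on all 3 arrays.

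The sequences before the starts of 4 of these genes are shown because they carry the patterns described next: *Neurog2*, with the widest difference, *Neurod1* and *Slc17a6*, which follow it in the lineage and were lower with it, and *Tbr1*, which went the other way. Each is the 250 bases before an annotated start in RefSeq (GRCm38.p6), written 5′ to 3′ on the strand of the gene, and capitals mark E-boxes (CANNTG), the motif that basic helix-loop-helix factors such as Neurog2 and Neurod1 bind. They lie at chr3:127632886-127633135 (plus strand), chr2:79456637-79456886 (minus strand), chr2:61804203-61804452 (plus strand) and, for the downstream of 2 *Slc17a6* starts, chr7:51624387-51624636 (plus strand).
Neurog2: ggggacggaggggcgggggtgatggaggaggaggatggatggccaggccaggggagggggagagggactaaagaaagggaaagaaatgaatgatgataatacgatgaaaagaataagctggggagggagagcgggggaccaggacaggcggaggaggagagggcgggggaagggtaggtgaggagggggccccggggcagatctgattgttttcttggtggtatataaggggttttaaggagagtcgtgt
Neurod1: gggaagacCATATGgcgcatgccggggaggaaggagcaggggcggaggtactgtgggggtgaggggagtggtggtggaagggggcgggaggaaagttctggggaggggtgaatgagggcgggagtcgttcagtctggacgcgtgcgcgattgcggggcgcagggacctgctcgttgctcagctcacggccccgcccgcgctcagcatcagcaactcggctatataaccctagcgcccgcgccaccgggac
Tbr1: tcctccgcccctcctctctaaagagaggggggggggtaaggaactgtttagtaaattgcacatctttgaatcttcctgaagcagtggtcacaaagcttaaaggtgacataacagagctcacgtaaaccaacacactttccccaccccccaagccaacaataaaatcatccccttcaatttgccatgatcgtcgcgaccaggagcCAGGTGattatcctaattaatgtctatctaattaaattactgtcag
Slc17a6: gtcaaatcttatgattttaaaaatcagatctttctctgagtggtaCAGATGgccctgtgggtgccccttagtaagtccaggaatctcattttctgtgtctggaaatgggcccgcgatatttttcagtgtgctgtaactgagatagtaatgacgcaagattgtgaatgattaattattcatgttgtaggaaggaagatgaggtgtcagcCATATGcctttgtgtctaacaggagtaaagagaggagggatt
CANNTG reads the same on both strands, so 1 search covers them. The *Tbr1* window held CAGGTG 46 bases before the start, the *Neurod1* window held CATATG 242 bases before it, the *Slc17a6* window shown held CAGATG and CATATG 205 and 42 bases before it, the window of the upstream *Slc17a6* start (chr7:51621580-51621829) held CAAATG 144 bases before that start, and the *Neurog2* window held none. Of the 12 windows of the 10 genes, 7 (58.3%) held a CANNTG, against 66.2% of the 32851 windows of this length in the table. The form CAGATG or its reverse complement CATCTG, which is a subset of CANNTG, was in 1 of the 12, the *Slc17a6* window shown, and in 14.4% of all. The windows of the other members are at chr2:105668646-105668895 and chr2:105682213-105682462 (*Pax6*), chr6:85187681-85187930 (*Emx1*), chr19:59458440-59458689 (*Emx2*), chr13:56252181-56252430 (*Neurog1*), chr9:118477939-118478188 (*Eomes*) and chr6:55681264-55681513 (*Neurod6*). A match in these letters is a description of the sequence and not a measured binding site.

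*Pax6*, the paired homeobox factor of pallial radial glia, had intensities of 292 in ES-GFP-, 86.1 in ES-GFP+ and 6.91 in MGE-GFP+ cells by its first probe, and of 124, 66.6 and 6.36 by its second. Both probes gave the same order, ES-GFP- highest and MGE-GFP+ lowest, and neither was well above background in MGE-GFP+ cells. The level was 2.23-fold lower in ES-GFP+ than in ES-GFP- cells (log2 difference -1.16 ± 0.17), with 3.01-fold and 1.65-fold for the separate probes. It was at least 10.8-fold lower in MGE-GFP+ than in ES-GFP- cells and at least 4.84-fold lower than in ES-GFP+ cells. The direction was the same under every processing that gave a value, 11 for the first of these bounds and 10 for the second. Such counts include the processing reported here. With the floor raised to the control range the first bound was -0.39 on the log2 scale.

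*Emx1* and *Emx2*, the homeobox genes of the dorsal telencephalon, had another order. *Emx1* had intensities of 76.6 in ES-GFP-, 213 in ES-GFP+ and 20.1 in MGE-GFP+ cells. *Emx2* had intensities of 41.9, 114 and 25.8. Both were highest on the ES-GFP+ array, whose control probes were also the brightest, and every one of these values was within the control range of its array. *Emx1* was 3.14-fold higher in ES-GFP+ than in ES-GFP- cells (log2 difference 1.65 ± 0.26) and *Emx2* 3.06-fold higher (1.62 ± 0.45), and 11.9% and 12.4% of all genes differed by more in that direction. These differences were 1.12 and 0.60 after quantile normalization, and 0.66 and 0.25 with a normexp background correction before it. The part of the control-range signal in them was not tested. In MGE-GFP+ cells *Emx1* was 2.60-fold lower than in ES-GFP- and 8.19-fold lower than in ES-GFP+ cells, and *Emx2* was 3.41-fold lower than in ES-GFP+ cells. The *Emx2* difference between MGE-GFP+ and ES-GFP- cells (-0.15 ± 0.63) was within the repeat-spot spread, and its sign changed with the scaling.

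*Neurog2*, which drives pallial progenitors into glutamatergic neurogenesis, showed the widest difference of the group. Its intensity was 1043 in ES-GFP-, 73.4 in ES-GFP+ and 20.7 in MGE-GFP+ cells, and only the first was above the control range. The level was 12.6-fold lower in ES-GFP+ than in ES-GFP- cells (-3.65 ± 0.23), and 0.0590% of the 18655 genes were lower still in that comparison. It was 34.4-fold lower in MGE-GFP+ than in ES-GFP- cells (-5.10 ± 0.46), with 0.423% of genes lower. With the floor at the control range the log2 differences became bounds of -1.29 and -2.23, and both signs held under all 11 ways of processing. Between the GFP-positive populations *Neurog2* was 2.73-fold lower in MGE-GFP+ cells (-1.45 ± 0.50), but it was 0.26 higher on the log2 scale after quantile normalization.

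*Neurog1*, its close relative, had intensities of 260.3 in ES-GFP-, 68.5 in ES-GFP+ and 24.9 in MGE-GFP+ cells. The order was that of *Neurog2*, with a smaller range. Relative to ES-GFP- cells it was 3.36-fold lower in ES-GFP+ (-1.75 ± 0.24) and 7.14-fold lower in MGE-GFP+ cells (-2.84 ± 0.47). Only the ES-GFP- intensity was above the control range. With the floor at the control range the MGE-GFP+ difference became a bound of -0.23 and the ES-GFP+ difference had no value. The 2.12-fold lower level in MGE-GFP+ than in ES-GFP+ cells turned to 0.64 higher on the log2 scale after quantile normalization, and to 0.07 higher with normexp before it.

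*Eomes*, the T-box gene of intermediate progenitors, could be read from 1 of its 2 probes. That probe had intensities of 382 in ES-GFP-, 188 in ES-GFP+ and 127 in MGE-GFP+ cells. The other, at 21.5, 15.8 and 11.1, was not well above background on any array. Relative to ES-GFP- cells *Eomes* was 1.80-fold lower in ES-GFP+ (-0.85 ± 0.16) and 2.06-fold lower in MGE-GFP+ cells (-1.04 ± 0.15). The 2 GFP-positive populations differed by less than 2 SD of the repeat spots (-0.20 ± 0.16), and the sign of that difference changed with the scaling. Because *Eomes* also acts in early mesoderm and endoderm, genes of those layers were read beside it: *Foxa2*, which floor plate cells also use, had a mean intensity of 1614 in ES-GFP- cells, 193 in ES-GFP+ cells and was not well above background in MGE-GFP+ cells, while *T*, *Mixl1*, *Gsc* and *Sox17* were within the control range on all 3 arrays.

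*Neurod1*, a bHLH factor of newborn neurons, was above the control range in ES-GFP- cells by 1 of its 2 probes. That probe had intensities of 238 in ES-GFP-, 124 in ES-GFP+ and 42.9 in MGE-GFP+ cells. The other had 157, 5.18 and 12.1, and was well above background in ES-GFP- cells alone. The gene was at least 3.17-fold lower in ES-GFP+ and at least 5.81-fold lower in MGE-GFP+ than in ES-GFP- cells. With the floor at the control range the MGE-GFP+ bound was -0.10 on the log2 scale and the ES-GFP+ difference had no value. The *Neurod1* probes differed in size, with 1.69-fold for the first and at least 5.94-fold for the second between the ES-derived populations. Between MGE-GFP+ and ES-GFP+ cells it was 2.23-fold lower by the first probe (-1.16 ± 0.47), and higher by 0.09 to 0.22 on the log2 scale under 4 of the 10 ways of processing that gave a value.

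**Figure D2:**
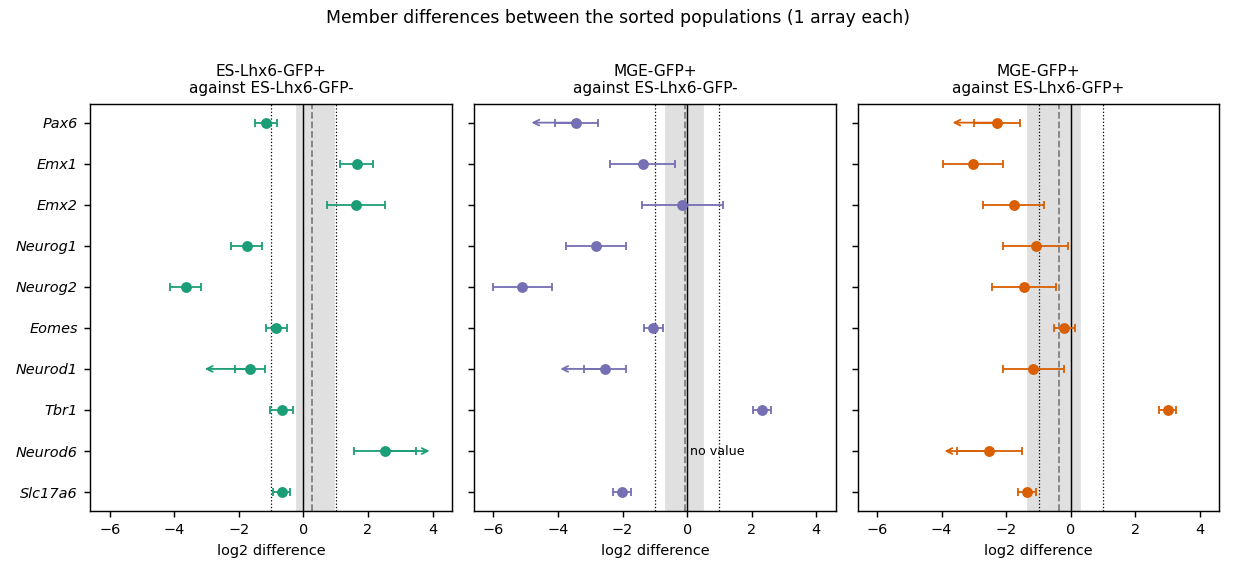
Log2 difference of each gene in the 3 comparisons, with bars of 2 SD of the repeat spots, arrows on values that are bounds, the dashed line and grey band at the median and middle 50% of all genes, and dotted lines at 2-fold. *Neurog2* is at -3.65 and -5.10 against ES-GFP- cells, and *Tbr1* is the one member above 2-fold in both comparisons of MGE-GFP+ cells (2.31 and 2.99).

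*Tbr1*, the T-box gene of early-born pallial neurons, was highest in MGE-GFP+ cells. Its first probe had intensities of 306 in ES-GFP-, 148 in ES-GFP+ and 1855 in MGE-GFP+ cells. The second had 97.2, 61.5 and 185. Both probes ran in the same order and both were above the control range in MGE-GFP+ cells. The gene was 4.97-fold higher in MGE-GFP+ than in ES-GFP- cells (2.31 ± 0.14) and 7.96-fold higher than in ES-GFP+ cells (2.99 ± 0.14), and 1.02% and 0.0915% of genes were higher still. The probes disagreed on the size, at 8.87-fold and 2.79-fold in the first comparison and 16.3-fold and 3.90-fold in the second. *Tbr1* was higher in MGE-GFP+ cells in both comparisons under all 11 ways of processing, by 1.76 to 3.15 and by 2.35 to 4.02 on the log2 scale. Within the ES-derived cells it was 1.60-fold lower in ES-GFP+ cells (-0.68 ± 0.18), which differed by more than 2 SD of the repeat spots but by less than 2-fold. There the first probe gave -0.88 ± 0.16 and the second -0.48 ± 0.31, which was within 2 SD. Both probes were within the control range on the ES-GFP+ array.

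*Neurod6*, which marks differentiating pallial projection neurons, had intensities of 3.79 in ES-GFP-, 89.9 in ES-GFP+ and 2.56 in MGE-GFP+ cells. It was well above background on the ES-GFP+ array alone, where it was within the control range. Against the floors of the other arrays it was at least 5.72-fold higher than in ES-GFP- cells and at least 5.74-fold higher than in MGE-GFP+ cells, or log2 differences of 2.52 for ES-GFP+ against ES-GFP- cells and -2.52 for MGE-GFP+ against ES-GFP+ cells. After quantile normalization these were 1.22 and -0.82, and with a normexp correction before it 0.69 and -0.59. *Dmrt3*, a gene of pallial progenitors, was also well above background on that array and within its control range, with 74.3. The part of the array's brighter dim range in these values was not tested.

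*Slc17a6*, the vesicular glutamate transporter of many early glutamatergic neurons, had intensities of 902 in ES-GFP-, 500.3 in ES-GFP+ and 151 in MGE-GFP+ cells. It was above the control range in both ES-derived populations and at 99.7% of it in MGE-GFP+ cells. The level was 1.60-fold lower in ES-GFP+ than in ES-GFP- cells (-0.67 ± 0.13), and the sign held under all 11 ways of processing. It was 4.07-fold lower in MGE-GFP+ than in ES-GFP- cells (-2.02 ± 0.14) and 2.55-fold lower than in ES-GFP+ cells (-1.35 ± 0.14). Of the other vesicular glutamate transporters, *Slc17a8* (*Vglut3*) had 2164, 248 and 10.4, which was 7.72-fold lower in ES-GFP+ and at least 70.9-fold lower in MGE-GFP+ cells, and *Slc17a7* (*Vglut1*) was not well above background on any array. Over the scalings and background corrections the *Slc17a8* log2 difference between MGE-GFP+ and ES-GFP- cells ran from -6.15 to -4.07. Slc17a8 is also used by serotonergic and other non-pallial neurons.

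Other genes of the same lineage were read as fixed lists. Of 8 other neurogenic factors with a value, 5 were at least 2-fold lower in ES-GFP+ than in ES-GFP- cells (list median -1.69) and 5 in MGE-GFP+ cells (median -1.91). They include *Nhlh2*, at 2086, 425 and 187 in ES-GFP-, ES-GFP+ and MGE-GFP+ cells. *Nhlh1*, at 7795, 6393 and 4789, had log2 differences between -0.15 and -0.04 in the 3 comparisons. *Bhlhe22*, a pallial neuron factor found in other neurons too, was high in both ES-derived populations (588 and 804) and low in MGE-GFP+ cells (35.3), where it was 17.6-fold lower than in ES-GFP+ cells. That log2 difference ran from -4.14 to -2.62 over the scalings and background corrections. *Atoh1* was not well above background on any array.

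Among 9 other pallial progenitor and cortical hem genes with a value, 4 were at least 2-fold lower and 2 at least 2-fold higher in ES-GFP+ than in ES-GFP- cells, and the 2 higher ones, *Dmrt3* and *Wnt8b*, were within the control range. In MGE-GFP+ cells 6 of 8 were at least 2-fold lower than in ES-GFP- cells, a count that ran from 2 to 6 over the scalings and background corrections. *Lmx1a*, a LIM homeobox gene of the hem, roof plate and ventral midbrain, had 4223, 541 and 60.8 in the 3 populations and was 6.92-fold and 47.4-fold lower in the GFP-positive cells. The second of these ran from -5.57 to -4.44 on the log2 scale over the scalings and background corrections. *Wnt7b* had 648, 129 and 48.8. *Lhx2*, used in pallium, eye field and subpallium alike, had 1644, 607 and 881 and stayed above the control range on all 3 arrays.

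Pallial projection neuron genes did not move as a block. Of 11, 4 were at least 2-fold higher and 2 at least 2-fold lower in ES-GFP+ than in ES-GFP- cells, and 3 were higher and 3 lower in MGE-GFP+ cells. The higher ones above the control range were *Cux2* (111, 242 and 282), a gene of upper-layer neurons, in MGE-GFP+ cells and, in both populations, *Bcl11b* (170.3, 787 and 1986) and *Foxp2* (183, 592 and 783), which striatal neurons, and in the case of *Bcl11b* interneurons, also express. *Fezf2*, a gene of deep-layer projection neurons, had 156, 43.7 and 16.4 and was within the control range throughout. Of 6 Cajal-Retzius genes, 3 were at least 2-fold lower in ES-GFP+ and 4 in MGE-GFP+ than in ES-GFP- cells. *Ebf3* had 1408, 360 and 41.0, and *Lhx5* had 457, 176 and 9.78. *Reln*, which interneurons and Cajal-Retzius cells share, had 699, 475 and 565 and differed by less than 2-fold in all 3 comparisons. *Trp73* had 49.6, 105 and 59.1 as the mean of 3 probes, was 1.47-fold higher in MGE-GFP+ than in ES-GFP- cells, and had a probe above the control range in MGE-GFP+ cells alone. Cajal-Retzius cells also express *Tbr1*, and their part in its level was not tested.

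**Figure D3:**
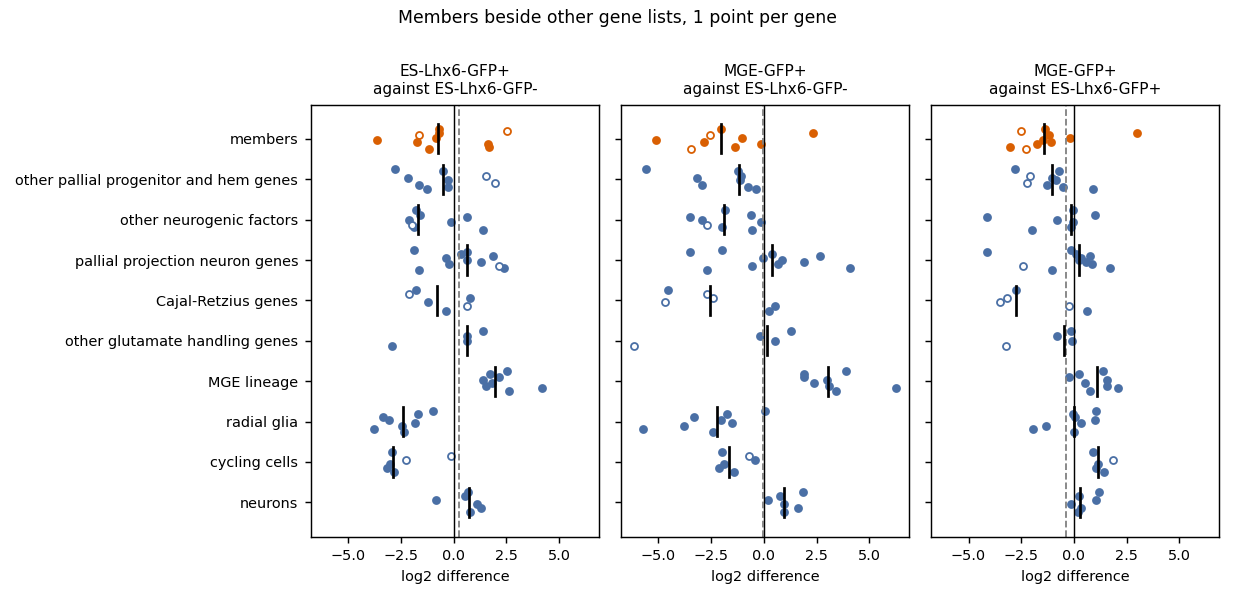
Log2 difference of each gene of the members and of 9 other lists in the 3 comparisons, 1 point per gene, open where the value is a bound, with a black bar at the list median and a dashed line at the median of all genes. The members' medians are -0.76, -2.02 and -1.40, the radial glia list lies to the left of 0 in both comparisons with ES-GFP- cells (medians -2.41 and -2.22) but for *Sox2* in MGE-GFP+ cells (0.055), and the MGE lineage list lies to the right (1.97 and 3.03).

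Markers of other cells also differed between the populations, some lists higher and some lower in the GFP-positive cells. All 8 MGE lineage genes were at least 2-fold higher in both GFP-positive populations than in ES-GFP- cells, against 24.0% of all genes in ES-GFP+ and 9.90% in MGE-GFP+ cells. *Lhx6*, the gene behind the sort, is 1 of the 8 and is not independent of it. The ES-GFP+ count was 7 to 8 over the scalings and background corrections. The summed level (on the linear scale, in units of the array's 75th percentile) was 74.8 in ES-GFP-, 163 in ES-GFP+ and 259 in MGE-GFP+ cells. Of 8 radial glia genes, 7 were at least 2-fold lower in each GFP-positive population, with summed levels of 61.5, 12.1 and 14.9. Of 6 cycling cell genes, 5 were at least 2-fold lower in ES-GFP+ and 4 in MGE-GFP+ cells, with summed levels of 11.0, 1.41 and 3.54. *Neurog2*, *Pax6* and *Neurog1* are themselves progenitor genes, and the part of the progenitor share in their differences was not tested. Pan-neuronal genes differed less: 2 of 6 were at least 2-fold higher in each GFP-positive population, with summed levels of 74.1, 118 and 148.

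Genes of regions outside the telencephalon, some of which use the same factors, were read as lists too. The summed levels of these lists fell from ES-GFP- to ES-GFP+ to MGE-GFP+ cells, except in the thalamic and dorsal diencephalic list. Single genes did not all follow that order. *Lmx1b*, a gene of midbrain and hindbrain neurons, had 1061, 380 and 134, and *Foxb1* had 225, 47.2 and 3.08, both highest in ES-GFP- cells. *Rax*, a gene of the eye field and hypothalamus, had 109.5, 579.9 and 43.3 and was 5.98-fold higher in ES-GFP+ than in ES-GFP- cells, above the control range in ES-GFP+ cells alone. Of 9 midbrain and hindbrain genes, 5 were above the control range in ES-GFP-, 2 in ES-GFP+ and 2 in MGE-GFP+ cells, with summed levels of 5.05, 2.65 and 0.895. The summed levels of 6 thalamic and dorsal diencephalic genes were 1.91, 1.35 and 3.21, of which *Gbx2*, a gene that MGE cells share, had 368, 514 and 1659.5. For 7 retina and eye field genes they were 8.18, 3.88 and 2.75, although 4 of the 7 were at least 2-fold higher in ES-GFP+ than in ES-GFP- cells (*Rax* and, within the control range, *Six6*, *Atoh7* and *Crx*) and 3 at least 2-fold lower, with a median of 1.01. For 6 spinal cord and caudal Hox genes the summed levels were 0.682, 0.591 and 0.240, and of the 5 with a value 2 were at least 2-fold higher and 1 lower in ES-GFP+ cells (median 0.75). Of all genes 24.0% were at least 2-fold higher and 6.40% lower there. Over the scalings and background corrections the retina median ran from -0.36 to 1.01 and the caudal median from -0.46 to 0.75. The counts of higher genes ran from 1 to 4 and from 0 to 2. The part of these regions in the levels of *Pax6*, *Neurog1*, *Neurog2* and *Slc17a6* was not tested. The MGE-GFP+ sample, which came from tissue, held embryonic globin RNA (*Hbb-y*, 5629 against 13.3 and 30.2 in the ES-derived cells). Of 4 microglial genes, 2 were above the control range there, *Csf1r* (399.9, 498 and 398 in ES-GFP-, ES-GFP+ and MGE-GFP+ cells) and *Aif1* (73.1, 252 and 163), and the summed levels were 2.49, 2.73 and 3.45. *Aif1* was 3.27-fold higher in MGE-GFP+ than in ES-GFP- cells and 1.19-fold lower than in ES-GFP+ cells. In MGE-GFP+ cells *Cx3cr1*, within the control range at 26.8, was at least 12.0-fold higher than in ES-GFP- and at least 8.04-fold higher than in ES-GFP+ cells. Of 4 endothelial genes, *Kdr* was above the control range in MGE-GFP+ cells (249, 142 and 467) and 2.75-fold higher than in ES-GFP- cells, while *Cdh5* was not well above background on any array, and the summed levels were 0.887, 0.954 and 1.11. The part of such cells in the members' levels was not tested.

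The genes whose levels over the 3 arrays ran most like that of *Neurog2* were *Fndc5*, *Notch3*, *Zcchc24*, *Gpx8* and *Dkk3*, out of 11445 candidates. Likeness is the Euclidean distance between the 3 levels after each gene's mean was taken off, and it was 0.11 for *Fndc5* and 0.37 for *Dkk3*. *Notch3*, a receptor of progenitors and of vessel-wall cells, had intensities of 6836, 479.5 and 169.7 and was 12.6-fold lower in ES-GFP+ and 27.5-fold lower in MGE-GFP+ than in ES-GFP- cells. For *Tbr1* they were *Mpi* (0.08), *Rgs4* (0.19), *Sema3e* (0.38), *Prkcq* (0.38) and *Slc18b1* (0.40), out of 10555. *Rgs4*, a regulator of G-protein signaling, had 675.5, 338 and 1905, and *Sema3e*, a semaphorin, had 89.6, 65.4 and 283. With 3 arrays the likeness rests on 3 values per gene.

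**Figure D4:**
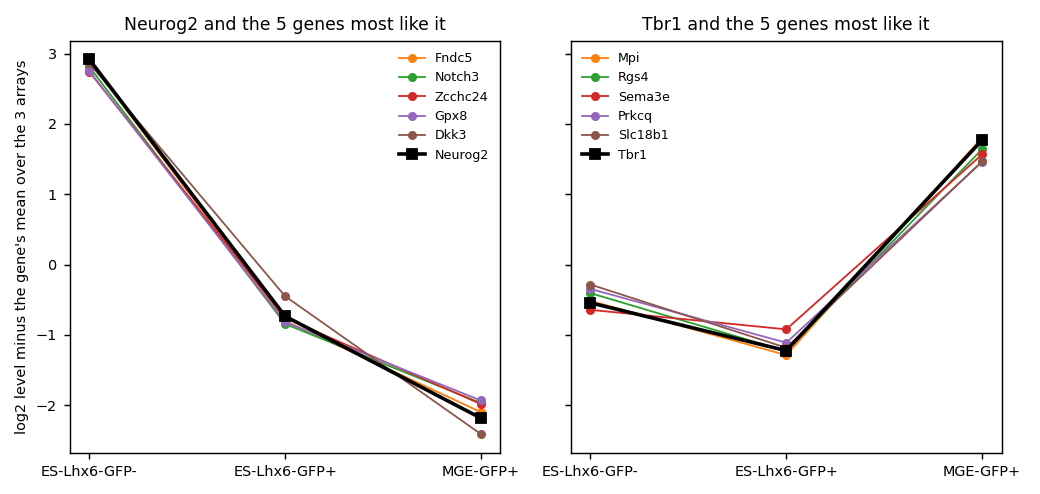
Levels (log2) of *Neurog2* and *Tbr1* on the 3 arrays, each minus the gene's own mean, with the 5 genes nearest to each. The *Neurog2* set falls from ES-GFP- to MGE-GFP+ cells, and the *Tbr1* set is highest in MGE-GFP+ cells and, for all 6 genes, lowest in ES-GFP+ cells.

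The direction of the members' differences from ES-GFP- cells depended little on the processing. In ES-GFP+ cells the signs of all 10 members were kept under every way of processing that gave a value, 7 lower and 3 higher. In MGE-GFP+ cells only *Emx2* changed sign. Between the GFP-positive populations *Neurog1*, *Neurog2*, *Eomes* and *Neurod1* changed sign under some of them. *Pax6*, *Emx1*, *Emx2*, *Neurod6* and *Slc17a6* stayed lower and *Tbr1* higher in MGE-GFP+ cells under all that gave a value. All members but *Slc17a6* and *Tbr1* were within the control range on both arrays, so a kept sign does not mark a better-measured gene. With normexp before quantile normalization the *Pax6*, *Emx1*, *Emx2* and *Neurod6* differences were -0.40, -1.25, -0.25 and -0.59.

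**Figure D5:**
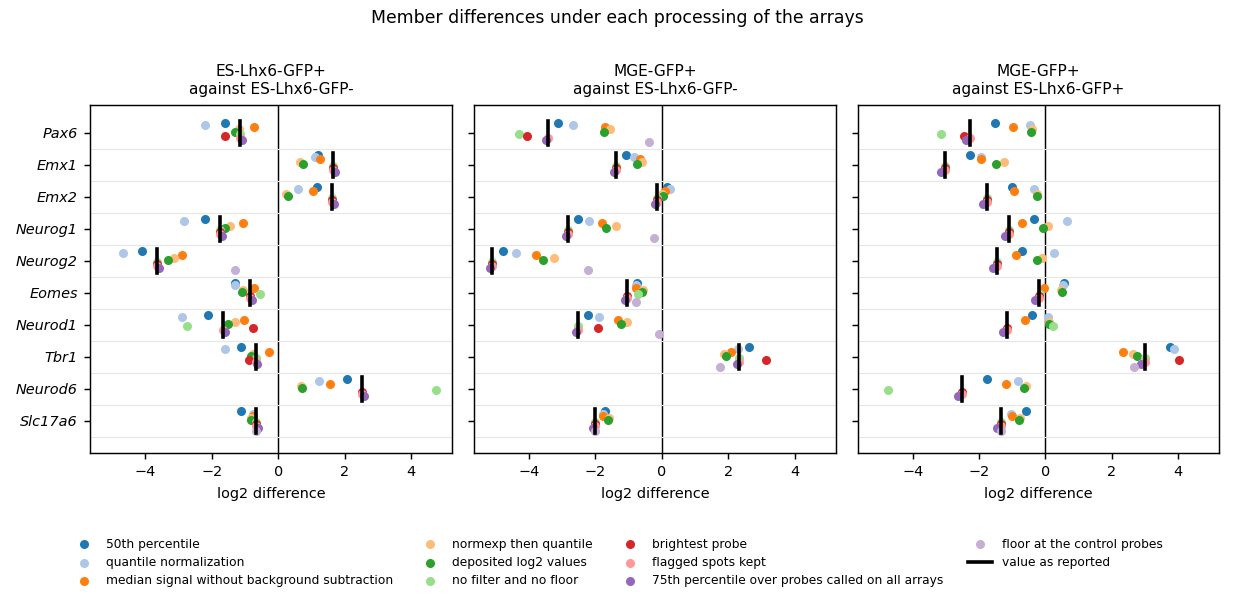
Log2 difference of each gene in the 3 comparisons under each way of processing the arrays (colored points) beside the value as reported (black bar). The *Tbr1* points in MGE-GFP+ cells run from 1.76 to 3.15 and from 2.35 to 4.02, and points of *Neurog1*, *Neurog2*, *Eomes* and *Neurod1* lie on both sides of 0 in MGE-GFP+ against ES-GFP+ cells.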

How the data were processed

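Total RNA of the sorted cells was amplified, labeled with Cy3 and hybridised to 3 one-color arrays of 62976 spots on 1 slide, 1 array per population. The labels deposited with the arrays and the paper name different amplification kits and array formats. The scanner files deposited by the authors give linear spot intensities, background-subtracted by Feature Extraction (version 10.7.3.1 per the file headers), with no scaling between arrays. A second table deposited by the authors gives log2 values of unstated scale. It lay within 0.315 of quantile-normalised log2 median spot signals on every array (column medians 7.68, 7.69 and 7.69) and was used as an alternative only.

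Outlier-flagged spots (137, 135 and 98 on the ES-GFP-, ES-GFP+ and MGE-GFP+ arrays) were left out, spots of a probe were averaged, and the array's 75th percentile over 55681 mouse probes was subtracted from log2 of the intensity. The well-above-background call of the software had to hold on a share of 0.5 or more of a probe's kept spots, which it did for 44695, 50452 and 42908 probes, and other probes were raised to the lowest called level of the array. No difference was given where neither side was called or where the called side lay under the other's floor. Probes were named through RefSeq accessions (26582 probes), and probes of a gene with a value were averaged. The text names all 10 members, genes of the other lists that were above the control range on an array and differed at least 4-fold in a comparison (at most 8 per list, with others of a list for context), and the 5 genes most like *Neurog2* and *Tbr1*. *Nhlh1*, *Lhx2*, *Fezf2*, *Cux2*, *Reln*, *Trp73*, *Csf1r*, *Aif1* and the markers given at low levels were added after their values were seen. Some genes that the lists hold and the rule names are not reported here by name. The members and lists were chosen with earlier results of these data known.

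Alternatives were scaling to the 50th percentile or by quantiles, the percentile over probes called on all arrays, median signals without background subtraction, normexp (limma 3.58.1, offset 50, on median signals, since mean signals were not used here) before quantile normalization, the deposited values, no floor, a floor at the 95th percentile of the control probes, the brightest probe, flagged spots kept, and a 4-fold threshold. Computations used Python 3.11.15 with pandas 2.3.3 and R 4.3.3, and were tested on simulated data. The number of arrays limits the precision.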

Additional observations from a re-analysis of the deposited data

Results flagged for a closer look

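*Emx1* went in opposite directions from ES-GFP- cells, with a log2 difference of 1.65 in ES-GFP+ cells and of -1.38 in MGE-GFP+ cells, each past 2-fold. The difference between these values was not tested, both share the ES-GFP- array, and the 1 *Emx1* probe was within the control range on all 3 arrays. After quantile normalization the values were 1.12 and -0.83, and with a normexp correction before it 0.66 and -0.58.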

How the results depend on the processing

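The counts of members at least 2-fold different moved with the scaling and with how dim probes were treated. Between ES-GFP+ and ES-GFP- cells the 3 higher members became 0 with normexp followed by quantile normalization (called normexp from here on), 0 in the deposited log2 values, 0 with the floor at the control probes (where 2 members kept a value) and 1 at 4-fold, and the 4 lower became 7 with the 50th percentile, 1 with that floor and 1 at 4-fold. The 7 members lower in MGE-GFP+ than in ES-GFP- cells became 2 with that floor. The 8 lower in MGE-GFP+ than in ES-GFP+ cells became 4 with the 50th percentile, 2 with quantile normalization, 3 with median signals, 1 with normexp, 1 in the deposited values, 1 with that floor and 3 at 4-fold. In that comparison 4 members changed sign: *Eomes*, under 2-fold throughout, from -0.20 to 0.55 (50th percentile), 0.53 (quantile), 0.48 (normexp) and 0.51 (deposited values), *Neurog1* to 0.64 (quantile) and 0.0713 (normexp), *Neurog2* to 0.26 (quantile), and *Neurod1* to 0.0888 (quantile), 0.11 (normexp), 0.11 (deposited values) and 0.22 (no floor). The causes were not tested. Of 272 single-gene values under the alternatives, 127 moved by less than the repeat-spot SD, some of them fixed in advance as said above. Another 138 moved by more without turning a difference that was past 2-fold, and 7, those of *Neurog1*, *Neurog2* and *Neurod1*, turned one. The median of all genes in that comparison was -0.36 as reported, 0.40 with the 50th percentile and 0.05 with quantiles, and the shares of genes at least 2-fold higher and lower were 5.48% and 32.2%, 26.0% and 17.1%, and 14.6% and 13.7%. For ES-GFP+ against ES-GFP- cells the medians were 0.27, -0.18 and -0.0012, with 24.0% and 6.40%, 14.9% and 13.7%, and 11.5% and 15.0%. For MGE-GFP+ against ES-GFP- cells the medians were -0.06, 0.25 and 0.05, with 9.90% and 17.2%, 17.9% and 12.6%, and 10.4% and 12.8%. No paired analysis was possible because each population had 1 array and the labels carry no replicate numbers. Signal over background limited *Emx1*, *Emx2* and *Neurod6* on every array, all members but *Slc17a6* on the ES-GFP+ array and all members but *Tbr1* on the MGE-GFP+ array.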
